A study of Mus musculus with 10 samples.

Results

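The actin isoform genes of the mouse were described in left atrial tissue around the pulmonary veins, with and without the transcription factor gene Tbx5. The members are the 6 genes Actc1, Acta1, Acta2, Actg2, Actb and Actg1, each found by its symbol as 1 row among the 54532 genes of the deposited count table, and all 6 were among the 17752 genes with enough counts to be tested. The tissue is the left atrium without its appendage and with a short cuff of pulmonary vein. All mice carried 2 copies of the tamoxifen-inducible Cre recombinase at ROSA26 (R26creERT2/creERT2), a locus active in most cell types, so that deletion was not limited to heart muscle. The 4 controls (Ctrl) were Tbx5+/+ and the 6 conditional mutants (CKO) were Tbx5flox/flox. Both groups received tamoxifen on 3 days at 6 weeks of age and were sampled 1 week later, at 7 weeks. The controls therefore share the Cre and the tamoxifen with the mutants.

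Actin is the protein of thin filaments and of the cytoskeleton, and its 6 vertebrate genes encode proteins that differ mostly in a few residues near the amino terminus. Actc1 (cardiac alpha-actin) and Acta1 (skeletal alpha-actin) are the striated muscle isoforms. Acta1 is known for its expression in the developing heart and its return in stressed adult heart muscle. Acta2 and Actg2 are the vascular and the enteric smooth muscle isoforms, and Acta2 also marks myofibroblasts. Actb and Actg1 are the cytoplasmic isoforms of all cells. Genes of this family are classical targets of serum response factor (SRF), which binds CArG boxes and whose MRTF coactivators are held back by free actin monomers.

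The 6 genes encode near-identical proteins from different codons, and how far their reads can be told apart depends on those bases. The start of each coding sequence is shown because it holds the isoform-specific amino terminus. Capitals mark bases that are not identical to Actc1, and the sequences are from the GENCODE M21 transcripts on GRCm38.
Actc1: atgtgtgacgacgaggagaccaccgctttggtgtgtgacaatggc
Acta1: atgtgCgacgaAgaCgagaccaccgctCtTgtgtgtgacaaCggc
Acta2: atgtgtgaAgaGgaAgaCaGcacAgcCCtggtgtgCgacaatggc
Actg2: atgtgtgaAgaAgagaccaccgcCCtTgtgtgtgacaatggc
Actb: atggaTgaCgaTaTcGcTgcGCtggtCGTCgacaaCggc
Actg1: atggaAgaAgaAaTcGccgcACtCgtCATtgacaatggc

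The longest stretch that Acta1 and Actc1 share in their coding sequences is shown next, since these 2 genes give the largest difference and the largest level below. It is 29 bases long (coding bases 964 to 992 of both), shorter than the 50-base read length from which the counts were made.
Actc1: ctggctcccagcaccatgaagatcaagat
Acta1: ctggctcccagcaccatgaagatcaagat
Acta2: ctCgcAcccagcaccatgaagatcaagat
Actg2: Ttggctcccagcaccatgaagatcaagat
Actb: ctggctccTagcaccatgaagatcaagat
Actg1: ctAgcAccTagcacGatgaagatTaagat

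Over the whole coding sequence Acta1 and Actc1 were identical at 86.2% of 1134 aligned bases. Actb and Actg1 were the most alike pair, at 88.7% of 1128 bases, with a longest shared run of 62 bases. The longest run of any pair was 77 bases, between Acta1 and Actb. Of all 50-base windows of each gene's transcript, none of Actc1 and none of Actg2 occurred in a transcript of another gene. The share was 0.404% for Acta2, 2.22% for Acta1 and 14.2% for Actb. For Actg1 it was 60.7%, because all of its coding windows recur in other genes, mainly processed pseudogenes, while none of its 3′ UTR windows did. Allowing 2 mismatches, 3.15% of Acta1 windows lay within reach of Actc1, 6.73% within reach of Actb and 9.66% within reach of any other member.

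The libraries held 8602794 to 10040808 summed counts. Tbx5 exon 3, the part that this floxed allele is known to remove, had 0.903 to 1.70 of the median exon's coverage in the controls and 0.175 to 0.618 in the mutants, while total Tbx5 ran from 89.6 to 159 CPM (counts per 1000000 counts of the library, scaled between libraries) in the controls and from 167 to 425 in the mutants. Of all genes tested, 497 passed the threshold (an adjusted p under 0.05 by edgeR's quasi-likelihood test with Benjamini-Hochberg adjustment), which is 2.8%, and 1.54% were called higher in CKO. Atrial markers were present and low in CKO: the atrial light chain gene Myl7 averaged 5300.5 CPM in the controls and 870.3 CPM in the mutants. Ctrl 3 and CKO 4 stood apart through the airway secretory gene Scgb1a1, at 862 and 1452 CPM against at most 42.0 CPM in the others. All values are from pieces of tissue, in which a change in the number of cells of a type cannot be told apart from a change in RNA per cell. The design text speaks of RNA from 4 controls and 6 mutants, and no label names the animal behind each library.

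Actc1, the main actin of the adult heart, was by far the most abundant isoform in every library. Per length, in TPM (transcripts per 1000000, a level divided by transcript length), it averaged 7145 in Ctrl and 9494 in CKO and was the 10th highest of all tested genes in Ctrl. Next came Actb with 816 TPM in Ctrl and 968 TPM in CKO, Acta2 with 419 and 474 TPM, and Actg1 with 257 and 305 TPM. Actg2 averaged 23.4 TPM in Ctrl and 32.5 TPM in CKO. Acta1 was the lowest of the 6 in Ctrl, at 6.06 TPM, and reached 153 TPM in CKO. In Ctrl the order was Actc1, Actb, Acta2, Actg1, Actg2, Acta1, and the ranges over libraries overlapped for the neighbours Acta2 and Actg1 and for Actg2 and Acta1. In CKO Acta1 stood above Actg2 in mean TPM, and these neighbours again overlapped, as did Acta2 and Actg1.

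**Figure D1:**
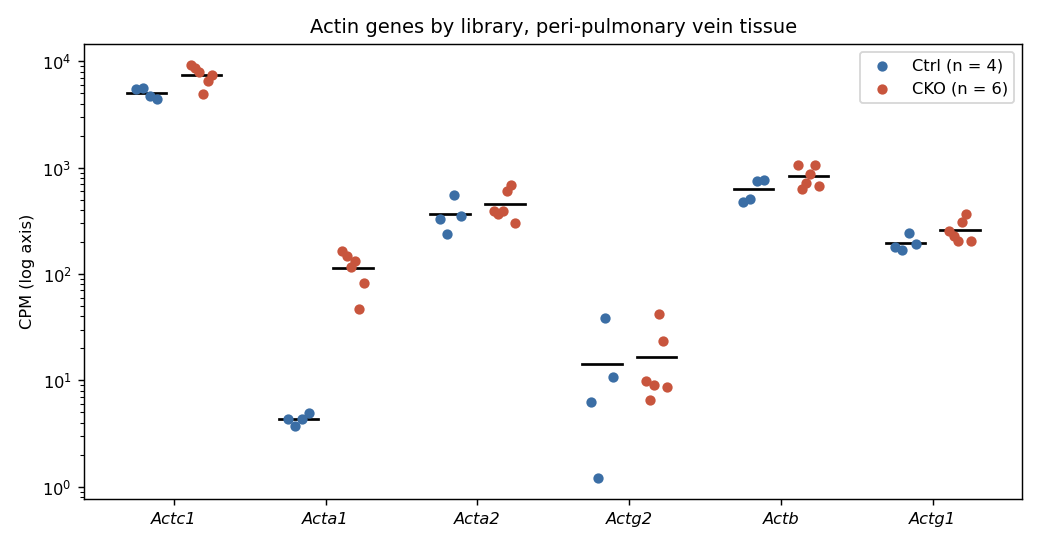
Level of each actin gene in every library in CPM on a log axis, with 1 point per library (blue, 4 Ctrl; red, 6 CKO) and a bar at the group mean. The groups are apart for Acta1, from 3.71 to 4.98 CPM in Ctrl and from 46.8 to 165 CPM in CKO, and overlap for the other members.

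Acta1, skeletal alpha-actin (ENSMUSG00000031972, chr8:123891769-123894751 on GRCm38, minus strand), was 26.4-fold higher in CKO. Its estimated counts were 41, 34, 39 and 45 in Ctrl 1 to 4. In CKO 1 to 6 they were 1471, 1402, 1049, 1315, 429 and 724. Every mutant library lay above every control, and the lowest mutant value (CKO 5) was still far from the highest control. Mean CPM was 4.34 ± 0.518 (SD, n = 4) in Ctrl and 115 ± 43.7 (SD, n = 6) in CKO. The log2 fold change was 4.72 (SE 0.37, edgeR adjusted p = 8.82e-05), with a 95% interval of 15.1- to 46.1-fold. Acta1 ranked 9th of all tested genes both by p-value and by fold change. It was the only member past the threshold and the only one whose groups did not overlap, in a table where 3.03% of all genes had every CKO library above every Ctrl library.

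The higher level of Acta1 in CKO was present on each of exons 2 to 7. Coverage of exon 2 averaged 1.21 ± 0.880 reads per base in Ctrl and 27.8 ± 12.0 in CKO (SD, n = 4 and 6). For exon 4, which shares no 50-base window with any other gene, the means were 1.45 and 45.3 reads per base. The CKO mean was 20.5 to 43.9 times the Ctrl mean in each of exons 2 to 7. Exon 3 is the one exon with shared windows (9.54%), and its ratio of 32.8 lay inside the range of the others. Exon 1, a 60-base 5′ UTR exon, had at most 1.13 reads per base in any library. Actc1 also had low coverage on its 5′ UTR exon, at 8.29 reads per base in Ctrl against 815 on exon 2.

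**Figure D2:**
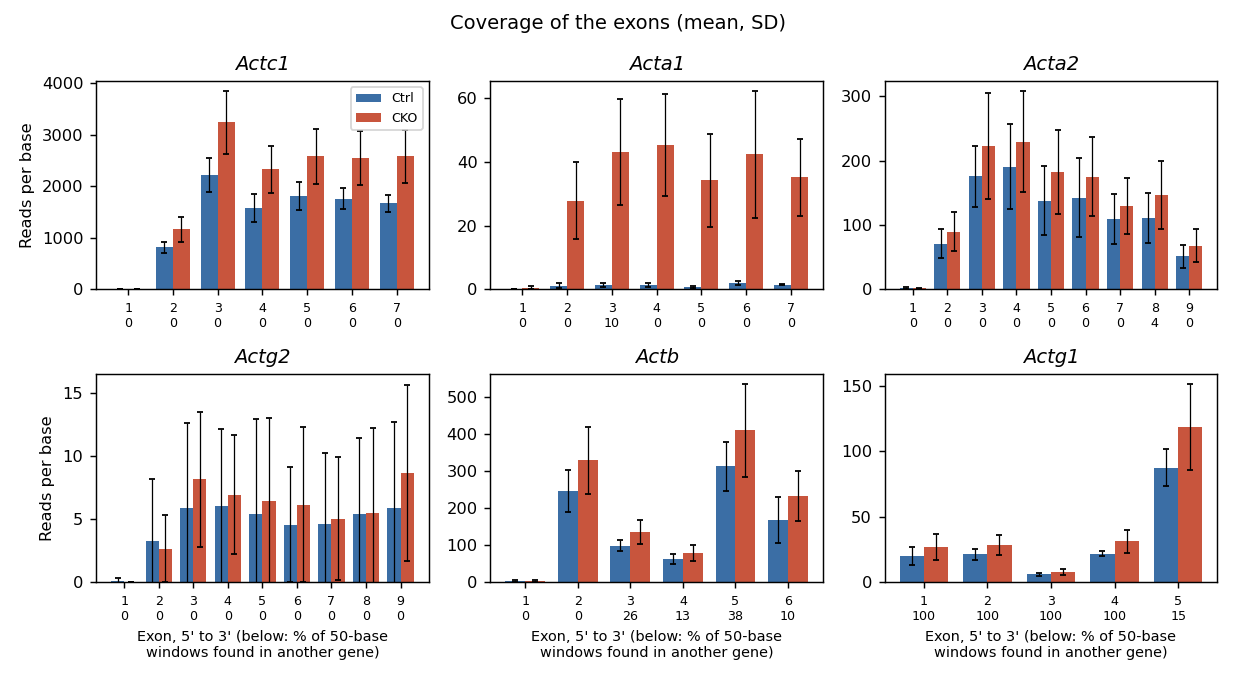
Mean coverage of each exon in reads per base, by gene, in Ctrl (blue) and CKO (red), with the SD over 4 and 6 libraries as error bars; the lower number under each exon is the percent of its 50-base windows found in another gene. Exons 2 to 7 of Acta1 are low in Ctrl and reach 27.8 to 45.3 reads per base in CKO, and the coding exons 1 to 4 of Actg1, with 100% shared windows, are lower than its last exon.

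Skeletal muscle markers were looked at beside Acta1, since skeletal muscle is the tissue in which it is highest. Of 20 listed markers 16 were in the table, 9 were tested, 4 were higher and 0 lower in CKO. Of all 17752 genes tested 1.54% were called higher and 223 genes lower. The 16 summed to 1144 to 1618 CPM in Ctrl and 1962 to 2647 CPM in CKO. Myh1, Myh2 and Tnnc2, which encode fast fibre myosins and troponin C, were at 0 in all 10 libraries. Mylpf, the fast light chain, reached 0.664 CPM in a control and 1.90 CPM in a mutant library, and Pvalb 1.16 CPM in a control. Tnnt3, Tnni2 and Atp2a1 were at most 9.66 CPM in the controls and 5.27 CPM in the mutants. The 4 called markers were Casq1 (20.6 and 85.8 mean CPM in Ctrl and CKO, adjusted p = 5.54e-04), Mybpc2 (11.8 and 27.1 CPM, 0.0281), Ckm (702 and 1120 CPM, 0.0428) and Myl1 (400 and 771 CPM, 0.0485). Casq1 and Mybpc2, named after their values were seen, encode a calcium store protein and a myosin-binding protein. When 1 library was left out, 1 to 3 of the markers were called higher and 0 to 1 lower. Of the 4, Casq1 alone stayed past the threshold under each omission of 1 library.

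Actc1 (ENSMUSG00000068614, chr2:114047282-114053548) had counts of 51660, 51771, 42140 and 40351 in Ctrl 1 to 4. In CKO 1 to 6 its counts were 83141, 82237, 71812, 48426, 59657 and 65437. 5 of the 6 mutant libraries lay above every control in CPM, and CKO 4, at 4895 CPM, fell within the control range of 4468 to 5656 CPM. The means were 5065 ± 580 CPM in Ctrl (SD, n = 4) and 7437 ± 1577 CPM in CKO (SD, n = 6). The log2 fold change of 0.55 (SE 0.18, 95% interval 0.16 to 0.95) did not pass the threshold with edgeR (adjusted p = 0.142). With DESeq2 it did, at a log2 fold change of 0.57 and an adjusted p of 0.0241. Exons 2 to 7 of Actc1 had 1.42 to 1.54 times the Ctrl coverage in CKO. None of these exons shares a 50-base window with another gene.

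Acta1 made up 0.0656% to 0.111% of the Actc1 and Acta1 count in Ctrl libraries and 0.714% to 2.64% in CKO libraries. The highest value was in CKO 4 and the lowest mutant value in CKO 5. Of the summed count of all 6 actins, Acta1 was on average 0.0697% in Ctrl and 1.27% in CKO. Actc1 held 80.6% in Ctrl and 80.9% in CKO. These shares are a description and were not tested.

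Acta2, the actin of vascular smooth muscle (ENSMUSG00000035783, chr19:34241090-34255336), had counts of 3091, 2200, 4981 and 3149 in Ctrl and 3501, 3495, 3539, 5957, 6307 and 2695 in CKO. The groups overlapped, and the high libraries were Ctrl 3, CKO 4 and CKO 5. Means were 367 ± 132 CPM (SD, n = 4) and 457 ± 152 CPM (SD, n = 6), with a log2 fold change of 0.32 (95% interval -0.28 to 0.92, edgeR adjusted p = 0.586).

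Actg2, the enteric smooth muscle isoform (ENSMUSG00000059430, chr6:83512905-83536265), was the most variable member. Its counts were 59, 11, 345 and 98 in Ctrl and 88, 62, 83, 412, 214 and 77 in CKO. Ctrl 3 and CKO 4 were the highest library of their group and CKO 5 the next. The log2 fold change of 0.23 had a 95% interval of -1.47 to 1.92 (edgeR adjusted p = 0.909), which reaches from a fall to a rise. Its value rested on single libraries: it was 1.45 without Ctrl 3 and -0.30 without CKO 4. The ratio of Acta2 to Actg2 in TPM ran from 10.4 to 150 in Ctrl and from 7.84 to 29.3 in CKO.

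Smooth muscle markers were set beside these isoforms. Of 13 tested markers 0 were called by edgeR or DESeq2 and 0 had an unadjusted p under 0.05, and their median log2 fold change was 0.09. Of all 17752 genes tested edgeR called 2.8% and DESeq2 1132, and an unadjusted edgeR p of 0.0472 (Actg1) ranked 2910th. At these shares, 0 calls among 13 genes says little about a change in smooth muscle. The list summed to 739 to 1367 CPM in Ctrl, highest in Ctrl 3, and 807 to 1271 CPM in CKO, highest in CKO 4. Myh11, the smooth muscle myosin heavy chain, was at 97.6, 113, 413 and 218 CPM in Ctrl and at 103, 83.0, 144, 373, 221 and 133 CPM in CKO. Tagln, an actin-binding protein of smooth muscle named for its likeness to Actg2, was at 82.3 CPM in Ctrl 3, 77.5 CPM in CKO 4 and 78.3 CPM in CKO 5, and at most 50.8 CPM elsewhere. The other 2 of the 3 most abundant markers did not follow this order. Pcp4l1 was lowest of all libraries in CKO 5 and CKO 4, at 119 and 128 CPM, and its 167 CPM in Ctrl 3 lay below Ctrl 1 and Ctrl 2. Synpo2 was highest of the controls in Ctrl 3, at 159 CPM, but lowest of the mutants in CKO 5, at 94.3 CPM. The 10 pericyte markers gave the same 3 zeros, which say as little. The part of smooth muscle content in the Acta2 and Actg2 values was not tested.

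**Figure D3:**
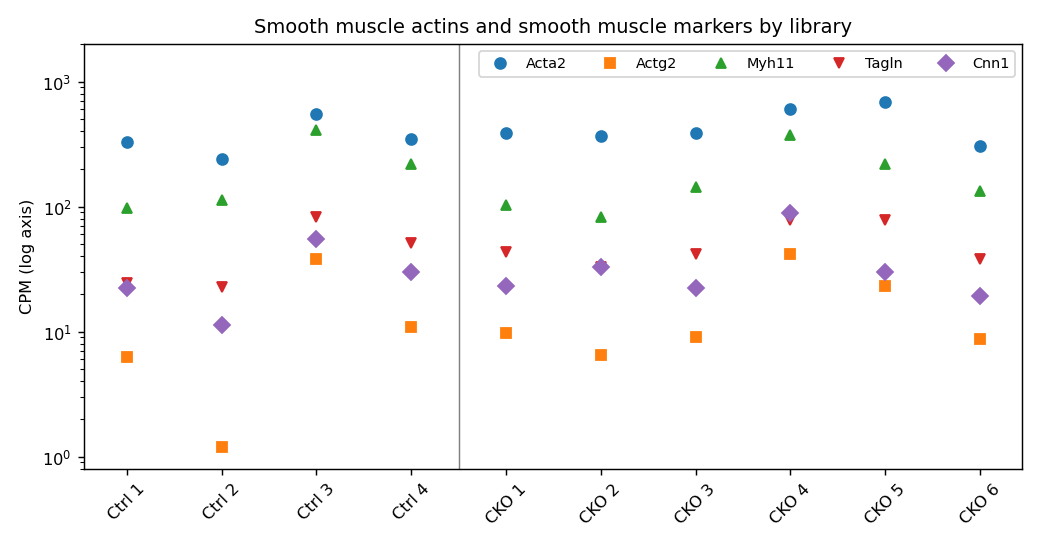
Acta2, Actg2 and 3 smooth muscle markers (Tagln and Cnn1 chosen after their values were seen) in CPM on a log axis in each library, Ctrl to the left of the line and CKO to the right. Ctrl 3 and CKO 4 hold the highest Actg2 and Myh11 of their groups, at 38.3 and 41.6 CPM for Actg2 and 413 and 373 CPM for Myh11.

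Actb, cytoplasmic beta-actin (ENSMUSG00000029580, chr5:142903115-142906754), had counts of 4551, 4667, 6799 and 6910 in Ctrl and 9401, 6040, 6508, 8697, 9734 and 5897 in CKO. The groups overlapped, with Ctrl 3 and Ctrl 4 above 3 of the 6 mutants in CPM. Means were 628 ± 153 CPM (SD, n = 4) and 835 ± 192 CPM (SD, n = 6), and the log2 fold change was 0.41 (95% interval -0.03 to 0.86, edgeR adjusted p = 0.334).

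Actg1, cytoplasmic gamma-actin (ENSMUSG00000062825, chr11:120345690-120348542), had counts of 1692, 1534, 2212 and 1725 in Ctrl and 2274, 2154, 1856, 3082, 3383 and 1817 in CKO. CKO 4 and CKO 5 were the highest of all libraries, and Ctrl 3 the highest control. The log2 fold change was 0.42 (95% interval 0.01 to 0.83, edgeR adjusted p = 0.288). Its reads could be split with near-identical copies by the counting, so that its level is uncertain. Coding exons 1 to 4 had 6.17 to 21.9 reads per base in Ctrl, against 87.5 on the last exon, which holds the 3′ UTR. The pseudogenes that share its windows held few counts. Adding the 5 that share at least 10% of them moved the Actg1 share of the actin count in Ctrl from 3.13% to 3.14%. Each of the 5 held at most 7 counts in any library, so adding them could hardly move the share. Reads lost before the counting would not show in it. Uneven exons were also seen in Actb, at 63.3 reads per base on exon 4 and 314 on exon 5 in Ctrl, with 12.8% and 38.5% of windows shared. The part of shared windows in the low coding coverage was not tested. The CKO to Ctrl ratio was alike on both kinds of exon, 1.28 to 1.44 on exons 1 to 4 and 1.35 on exon 5. The ratio of Actb to Actg1 in TPM ran from 2.70 to 3.70 in Ctrl and from 2.80 to 3.82 in CKO.

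Both cytoplasmic genes are widely used to normalise other measurements, and their spread was set beside 18 other such genes. Over all 10 libraries the coefficient of variation of CPM was 26.5% for Actb and 26.8% for Actg1, the 11th and 12th lowest of the 20. Sdha was the steadiest at 10.4% and Ywhaz the least steady at 50.7%. The highest Actb library was 2.21 times the lowest. Of the 18 other reference genes 0 passed edgeR's threshold, 6 had an unadjusted p under 0.05 and 4 were called by DESeq2, and their median log2 fold change was 0.28. Over all 17752 genes tested, DESeq2 called 1132 and edgeR 497. The unadjusted edgeR p of Actg1, 0.0472, ranked 2910th of them, so a p under 0.05 was common.

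All 6 fold changes were positive, and the median over the members was 0.42 beside -0.03 over all genes tested. The 6 actins together took 0.603% to 0.657% of the library count in Ctrl and 0.718% to 1.09% in CKO, without overlap. By TPM the groups overlapped, at 0.771% to 0.921% in Ctrl and 0.894% to 1.34% in CKO. CKO 5 and CKO 4 were the lowest mutants by TPM. The 10 cardiomyocyte markers summed to 65779 CPM in Ctrl 3 and 68828 CPM in CKO 5, against 86903 CPM in CKO 4 and at least 102325 CPM elsewhere. Ttn alone gave 41952 CPM of the Ctrl 3 sum and 37625 CPM of the CKO 5 sum. The 10 atrial markers were ordered otherwise, with their highest sum, 21112 CPM, in Ctrl 3 and at most 15115 CPM in any other library. Among the mutants their sum was lowest in CKO 4 (4578 CPM), followed by CKO 5 (5598 CPM). Tnnt2 of Ctrl 3 (3145 CPM) lay inside the range of the other controls, 3009 to 3405 CPM. Striated isoforms made up 76.6% of actin TPM in Ctrl 3, 75.1% in CKO 4 and 77.5% in CKO 5, against 79.6% to 88.7% in the other libraries. The part of muscle content in these shares was not tested.

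**Figure D4:**
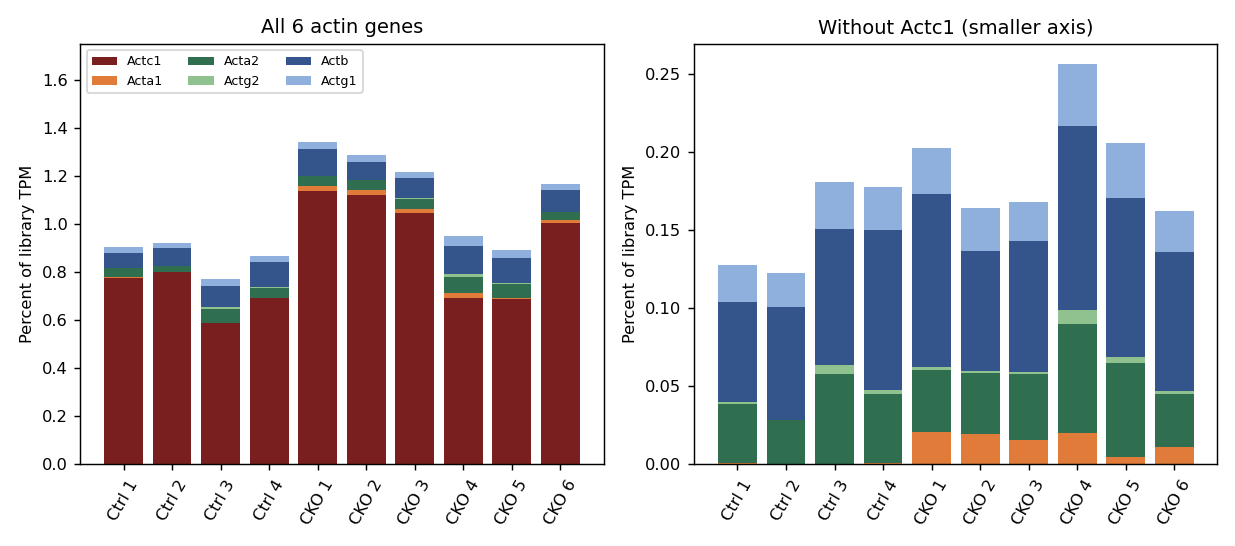
Stacked TPM of the actin genes as a percent of all TPM in each library, for all 6 genes (left) and without Actc1 on a smaller axis (right). Actc1 fills most of each bar, Acta1 shows as an orange band in the CKO bars, and the non-Actc1 stack is tallest in CKO 4.

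The authors' deposited table gives fold changes for the appendage as well, whose libraries were not analysed here. The values of the 2 tissues are given side by side without a test between them. In the authors' deposited table, Acta1 was higher in CKO in the appendage, at a log2 fold change of 4.89 (false discovery rate 1.29e-31), and in the peri-pulmonary vein tissue, at 4.70 (9.86e-39). For Actc1 the authors' deposited table has 0.63 in the appendage (1.01e-08) and 0.54 in the peri-pulmonary vein tissue (0.590). Acta2 is listed in the authors' deposited table with 1.41 (2.04e-07) and 0.30 (0.730), Actb with 1.10 (4.44e-08) and 0.39 (0.579), and Actg1 with 0.99 (5.15e-06) and 0.40 (0.388). For Actg2 the same authors' deposited table gives 3.11 (0.108) and 0.22 (0.942). In the authors' deposited table the members called higher in the mutant appendage were 5 of 6, where 16.8% of its 13646 genes were, and 1 of 6 in the peri-pulmonary vein tissue, where 3.03% were. Whether the 2 regions differ in this was not tested.

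The third comparison of the authors' deposited table is named for the peri-pulmonary vein and the appendage, and values are read here as the former over the latter from the order of the names. Its direction and the animals that entered it are not given in the sources used here. On that reading the authors' deposited table has Actg2 at a log2 fold change of 9.83 (false discovery rate 3.47e-13), Acta2 at 3.15 (3.22e-26) and Acta1 at 1.33 (0.0147), so 3 of 6 members were called higher, beside 8.19% of all its genes. For Actg2 this is 910-fold, while its mean here was 14.1 CPM in Ctrl and 16.5 CPM in CKO. Its appendage level would then lie near the lowest measurable level, where the size of a fold is imprecise. Actg1 at 0.45 (0.135), Actb at 0.20 (0.691) and Actc1 at -0.16 (0.741) did not pass in the authors' deposited table.

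**Figure D5:**
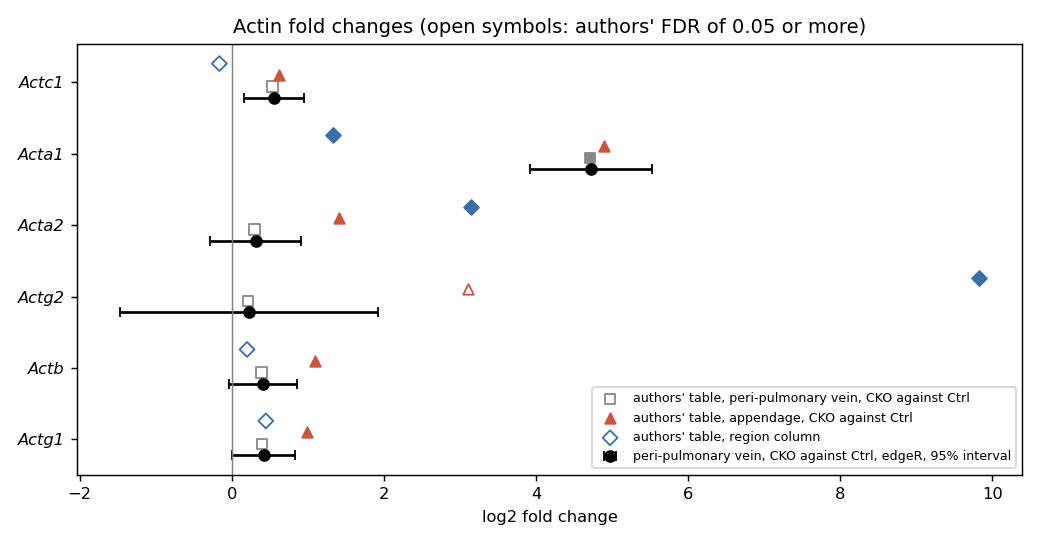
Log2 fold changes of the 6 actin genes: black circles, CKO against Ctrl in peri-pulmonary vein tissue with the 95% interval; other symbols, the authors' deposited values, open where the false discovery rate was 0.05 or more. Acta1 lies at 4.70 to 4.89 in the 3 mutant columns, and Actg2 is farthest right in the region column, at 9.83.

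The regions before the start sites were examined for 4 members that RefSeq's promoter table on GRCm38.p6 holds: Acta1, Actc1, Acta2 and Actg1. They are shown because the members are known SRF targets and 1 of them rose in the mutant of a T-box factor. Capitals mark CArG boxes, also with 1 C or G allowed in the A/T core. For Acta1 the 250 bases before the start are given, and for Actg1 the 203 bases outside its annotated first exon.
Acta1, chr8:123894776-123895025, minus strand: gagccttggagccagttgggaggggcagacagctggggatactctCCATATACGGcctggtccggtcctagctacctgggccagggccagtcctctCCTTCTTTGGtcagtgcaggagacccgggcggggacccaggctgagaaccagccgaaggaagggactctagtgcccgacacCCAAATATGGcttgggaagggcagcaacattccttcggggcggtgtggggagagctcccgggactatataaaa
Actg1, chr11:120348543-120348745, minus strand: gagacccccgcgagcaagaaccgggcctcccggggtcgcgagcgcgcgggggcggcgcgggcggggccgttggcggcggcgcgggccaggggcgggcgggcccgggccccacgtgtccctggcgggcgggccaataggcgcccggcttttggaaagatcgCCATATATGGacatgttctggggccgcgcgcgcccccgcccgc

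For Actc1 and Acta2, where an annotated first exon reaches into the window, only 30 bases around each match are given. The transcripts used here for exon coverage begin at base 114052887 for Actc1 and base 34255336 for Acta2, so all matches shown lie upstream of them.
Actc1, chr2:114053031-114053060, minus strand: ctccctagctCCCTATATGGccattgctct
Actc1, chr2:114052994-114053023, minus strand: ccctccccttCCTTACATGGtctgggagcc
Actc1, chr2:114052943-114052972, minus strand: gcccttggctCCAAGAATGGcctcagcggt
Actc1, chr2:114052903-114052932, minus strand: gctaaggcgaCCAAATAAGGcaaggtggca
Acta2, chr19:34255438-34255467, minus strand: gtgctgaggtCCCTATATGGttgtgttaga
Acta2, chr19:34255388-34255417, minus strand: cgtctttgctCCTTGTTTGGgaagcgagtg

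Acta1 held 1 exact CArG box, 73 bases before the start, and 3 matches with the allowance. Distances are counted from the RefSeq start, which for Acta1 is base 123894775, upstream of the transcript start used above at base 123894751. Actc1 had 1 exact box at 47 bases and 4 matches with the allowance, Acta2 had 0 and 2, and Actg1 had 1 and 1. An exact box was present in 1.47% of 32851 promoter windows of 250 bases, and a box with the allowance in 8.59%. The T-box half-site letters GGTGTG, searched on both strands, occurred once in Acta1, 32 bases before the start, and in none of the other 3 windows, and 16.3% of all windows hold them. TATAAA occurred once in Acta1, overlapping no other match, and in 12.4% of all windows. These matches describe letters in the windows and say nothing of binding.

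Of 12 tested genes of SRF, its cofactors and their regulators, 0 were called by edgeR and 1 by DESeq2. With edgeR 3 had an unadjusted p under 0.05, and the median log2 fold change was 0.08. Of all 17752 genes tested edgeR called 2.8% and DESeq2 called 1132. Many genes had a low unadjusted p, as the edgeR p of Actg1, 0.0472, ranked only 2910th of them. Fhl1, a LIM protein of muscle, averaged 221 and 327 CPM in the 2 groups (edgeR adjusted p = 0.0910), and Fhl2, a related LIM cofactor, at 288 and 217 CPM (0.355). Srf itself, named after its values were seen, was at 46.2 and 43.6 CPM. The 16 tested genes of actin folding include the chaperonin subunits Cct5 (166 and 199 CPM) and Tcp1 (166 and 196 CPM). They gave 0 calls by edgeR and by DESeq2 and 1 unadjusted p under 0.05, with a median of 0.17. At the shares of all genes, 0 calls by edgeR among 12 or 16 genes says little about either list.

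Of 32 tested genes of nucleation and elongation 4 rose and 1 fell. The filament nucleators of muscle Lmod2 and Lmod3 had log2 fold changes of 0.88 (edgeR adjusted p = 0.00353) and 0.63 (0.0207), and the cortical protein Cttn 0.37 (0.0224). The formin Daam2 had -1.30 (0.0209), and Diaph3, another formin, named after its values were seen, 1.54 (0.0228). Of 28 tested crosslinking and anchoring genes 5 rose and 1 fell. Xirp1, an actin-binding repeat protein of intercalated discs, was at 1.65 (0.00559), Pdlim3 of the Z-disc at 0.99 (0.0124), Csrp3, a Z-disc LIM protein, at 0.82 (0.0155), and Neb, the thin filament protein nebulin, at -0.83 (0.0252). The other 2, named after their values were seen, were Ankrd1 at 1.33 (0.0284) and Ankrd2, at 0.0554 mean CPM in Ctrl and 3.11 mean CPM in CKO. Among 27 tested capping, severing and monomer-binding genes 2 rose, Twf2 (0.51, 0.0292) and Wdr1 (0.47, 0.0498). Under omission of 1 library the numbers of higher genes were 2 to 5 for nucleation, 2 to 6 for anchoring and 0 to 2 for capping. DESeq2 called 7 genes of nucleation (6 higher), 14 of anchoring (12 higher) and 6 of capping (5 higher). Over all 17752 genes tested it called 1132 (692 higher), where edgeR called 497. Of the genes named here, Lmod2, Pdlim3 and Xirp1 stayed past the threshold in each such omission and without Ctrl 3 and CKO 4 together.

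Markers of other cells that contain actin are given as values, and of all genes tested edgeR called 1.54% higher. Of 15 tested fibroblast and myofibroblast markers 2 were called higher by edgeR, Postn (154 and 614 mean CPM) and Meox1 (33.0 and 60.6 CPM), both named after their values were seen. The count was 0 to 3 when 1 library was left out and 7 with DESeq2, which called 1132 of all 17752 genes tested. Meox1 kept its call in 2 of 11 omissions, and Postn in 9 of 11, losing it without Ctrl 2 and without Ctrl 4. The most abundant markers of this list, the collagen genes Col3a1 (2944 and 5306 CPM) and Col1a2 (814 and 1277 CPM) and Dcn (1555 and 1892 CPM), did not pass with edgeR. The list summed to 5000 to 8675 CPM in Ctrl and to 8842 to 16572 CPM in CKO. Of 11 macrophage and leukocyte markers 2 were called higher, 0 to 5 when 1 library was left out and 6 with DESeq2. Of 10 endothelial markers 1 was, Vwf (667 and 1368 CPM), with 0 to 2 when 1 library was left out and 2 with DESeq2. Of 10 cardiomyocyte markers 3 were called higher, Tnnt2 and, named after their values were seen, Tnnc1 and Mybpc3. When 1 library was left out, 2 to 3 were called higher and 0 to 1 lower. Tnnt2 lost its call without Ctrl 2 and Mybpc3 without Ctrl 4. The most abundant of the 10, Ttn (64603 and 64519 CPM, edgeR adjusted p = 0.998) and Myh6 (16969 and 20890 CPM, 0.483), did not pass. Ryr2, also chosen after seeing its values, averaged 4381 and 2370 CPM in the 2 groups (log2 fold change -0.89, edgeR adjusted p = 0.134), and DESeq2 called 4 of this list, 3 of them higher. The part of these cells in the values of Acta2, Actb and Actg1 was not tested.

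The genes whose levels were most like each member over the 10 libraries were found among 9892 genes by Pearson's r of log2 CPM, as a description. For Acta1 they were Zfp970 (r = 0.963), Pkp2 (0.959) and Ppp1r3a (0.959), but the r of deviations from the group means was 0.316, 0.257 and 0.498, so that this likeness lay mainly between the groups. For Actc1 they were Robo1 (0.955), Plekho1 (0.955) and Wdr54 (0.953), with 0.904 to 0.972 within groups. Acta2 was most like Tgfb2 (0.967), Cdca4 (0.960) and Man1a (0.941). Actg2 was most like Mustn1 (0.932), Rnf145 (0.930) and the smooth muscle marker Tagln (0.928). Actb was most like Abi1 (0.955), Nt5c (0.952) and Adcy7 (0.947). Actg1 was most like Pfn1, which encodes the actin monomer-binding protein profilin (0.982; 0.975 within groups), Cbfb (0.969) and Arf6 (0.966). The libraries share depth and composition, which all these values carry.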

How the data were processed

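RNA of 4 Ctrl and 6 CKO libraries was sequenced after ribosomal RNA removal, per the labels' protocols, although the labels' molecule field says polyA RNA; which held for these libraries is not settled here. The submitters' processing notes name TopHat2 2.1.1, StringTie 1.3.3, edgeR 3.18.1, limma 3.32.10, R 3.4.0 and build mm10. The deposited gene table holds estimated counts (expected counts) made from coverage times transcript length over a read length of 50, an equality checked in all 54532 genes of each library, and differ from raw reads in that way. Coverage in reads per base and TPM come from the deposited StringTie files, per the file headers. The authors' deposited table gives log2 fold changes, p-values and false discovery rates for 13646 genes, with model and filter not given in the sources used here. 10 columns of the gene table match no sample here and were not used, so the appendage is described only from the authors' table.

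Here, of 33196 genes with a count, filterByExpr kept 17752. They were scaled by TMM and compared in edgeR 4.0.16 (quasi-likelihood F test, genotype only, Benjamini-Hochberg over all genes, threshold 0.05), in R 4.3.3. Alternatives used DESeq2 1.42.0 and limma 3.58.1, and the test was checked on simulated counts. The log2 CPM used for likeness has a prior count of 2, and only genes with a mean of at least 10 CPM and no Gm or Rik name were searched. Window, exon and motif counts were made with Python 3.11.15. The lowest chi-square per degree of freedom between libraries of a group was 7.72, so none is a copy of another, and p-values measure the spread between these libraries. Same-numbered Ctrl and CKO libraries had correlations of deviations of 0.0313, 0.0876, -0.319 and 0.0894. These values show no pairing by number, but so few cannot exclude a shared litter or processing day. Per the file headers StringTie was run with a strand option (rf), whereas the kit named in the labels' protocols does not mark strand. This conflict is not settled here, so reads of overlapping antisense genes may not be told apart.

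All 6 members are named, with the 3 genes most like each, up to 4 called genes of each pathway list by adjusted p or the 2 most abundant where none was called, the 3 most abundant of each marker list where they bear on a member, and Tbx5 and Myl7 as checks. Other genes are marked as named after their values were seen. The members and lists were chosen with earlier results of these data known.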

Additional observations from a re-analysis of the deposited data

How the results depend on the processing

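Over 19 alternatives each, the log2 fold change of Acta1 was at least 4.32 and past the threshold in all 19 (adjusted p at most 0.00241). Those of Actc1 (0.39 to 0.65), Acta2 (0.16 to 0.60), Actb (0.25 to 0.52) and Actg1 (0.24 to 0.56) kept their sign. Actc1 passed only with DESeq2, which brought the number of called members from 1 to 2 and that of all genes from 497 to 1132. Actg2 was 1.45 without Ctrl 3 and turned to -0.02 without Ctrl 1, -0.15 without Ctrl 2 and -0.30 without CKO 4. With the replicate number as a block, 37 genes were called, Acta1 among them, and no member's call changed. Whether the numbers mark pairs of libraries is not settled here. Leaving out 1 library gave 190 (without Ctrl 2) to 607 (without Ctrl 3) called genes and 1 called member throughout. Without TMM 44.1% of calls were higher, beside 55.1% with it. The limma fits on log2(TPM + 1) and log2(TPM + 0.1) moved the median of all genes by -0.126 and -0.147. The Actg2 share of the actin count went from 0.228% to 0.101% in Ctrl without Ctrl 3 and from 0.204% to 0.124% in CKO without CKO 4. Shares without Ctrl 3 and CKO 4 were an alternative chosen after seeing the data. The cause of these differences was not tested. At 34 to 45 counts in Ctrl, depth limits the precision of the Acta1 fold, and 11 counts that of Actg2 in Ctrl 2.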
